A study of Mus musculus with 30 samples.

Results

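Expression was described for 9 genes of the 23303 gene entries in the amygdala, chosen by name: 8 neuropeptide genes (Sst, Npy, Cck, Vip, Cort, Nts, Cartpt and Trh) and Trhr, a receptor for thyrotropin-releasing hormone. All 9 exceeded the minimum for testing, an average of 0.5 FPKM in amygdala, which 13508 genes met. FPKM, the number of fragments scaled by transcript length and by the size of the library, corrects for transcript length, so levels of different genes can be set side by side.

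The samples were RNA-seq libraries of bilateral amygdala punches, 1 mm wide and aimed at the basolateral nucleus, from adult male C57BL/6J mice aged 2 to 3 months, with punches of 2 mice pooled per library. The HC group (6 libraries) was handled and killed under basal conditions, the FC group (6 libraries) was killed 2 h after auditory fear conditioning with 5 tone and foot-shock trials, and the Immo+FC group (4 libraries) underwent 2 h of immobilization a week before the same conditioning. The design holds no mice that were immobilized and not conditioned, and none that had only the chamber, the tone or the shock. Each p-value measures the spread between these pools.

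Neuropeptides are cut from larger precursors in dense core vesicles and act on G protein-coupled receptors, usually more slowly and over longer distances than the fast transmitter released by the same neuron. Somatostatin, neuropeptide Y, cholecystokinin, vasoactive intestinal peptide and cortistatin mark classes of GABA interneurons in cortex and basolateral amygdala, and cholecystokinin is also made by many glutamatergic cells. Neurotensin is prominent in GABA neurons of the central amygdala. Thyrotropin-releasing hormone is best known as the hypothalamic peptide that drives the thyroid axis, but it is also made in neurons of the amygdala and cortex.

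Several neuropeptide genes are known targets of the cAMP-responsive factor CREB, which binds the palindrome TGACGTCA, the cAMP response element (CRE), or its half-site TGACG, which reads CGTCA on the opposite strand. Both strands of the 250 bases before each gene's start were searched in RefSeq promoters of GRCm38.p6, where 8 of the 9 genes had an entry, and a half-site was counted only outside a full element. The full element was found in 2 of 8 promoters, and a full element or a half-site in 7 of 8. Over all 32851 promoters, 1.55% held the full element and 17.8% the half-site, alone or within a full element. The windows are shown 5′ to 3′ on the gene's strand, with the matched letters in capitals, because this motif is what most of these promoters share.
Sst: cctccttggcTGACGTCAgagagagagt
Cartpt: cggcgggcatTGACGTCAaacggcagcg
Cck: tgctggactgCGTCAgcactgggta
Vip: atcactactgTGACGtctttcgggg
Cort: ccggcttgtgCGTCAccgcgtgagt
Nts: tagggaagatCGTCActttccatca
Trh: ccggctctgcCGTCAgcgcccctgc
These letters lie 48 bases before the start for Sst (chr16:23890875-23890902, minus strand), 112 for Cartpt (chr13:99900778-99900805, minus strand), 47 for Cck (chr9:121495727-121495751, minus strand) and 79 for Vip (chr10:5639129-5639153, plus strand). They lie 18 bases before the start for Cort (chr4:149126767-149126791, minus strand), 166 for Nts (chr10:102490570-102490594, minus strand) and 96 for Trh (chr6:92244732-92244756, minus strand). In GENCODE vM21 the Sst and Cartpt windows fall inside an annotated exon of the same gene, whose transcripts there begin further upstream, and the other 5 windows lie outside any annotated gene. The Npy promoter held neither form. A match is a description of the letters and not a bound site.

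Sequencing depth was similar between groups, at 23148078 to 31366290 sequences per amygdala library, and 91.33 to 92.3% of the mapped sequences lay at a single place. The 5 basolateral amygdala markers were all tested and summed to 218.8 to 326.9 FPKM, and the 5 central amygdala markers to 70.2 to 119 FPKM. Of the other tissues next to the punch, 9 striatal markers ranged from 180.5 to 581 FPKM in sum and 10 choroid plexus markers from 4.44 to 1069 FPKM. The libraries thus differed in the level of these markers, and how much of either tissue each punch held was not tested. The 12 hypothalamic markers, of which 2 were tested, summed to 1.95 to 3.84 FPKM in HC, 1.83 to 19.99 FPKM in FC and 1.51 to 3.62 FPKM in Immo+FC. Of these, Hcrt, Pmch, Oxt, Sim1, Nr5a1 and Otp were each under 1 FPKM in every library, whereas Pomc reached 12.9 FPKM, Gal 3.32 FPKM and Avp 3.00 FPKM in FC. The FC maximum of 19.99 FPKM was that of FC library 6 alone, where the next highest FC sum was 7.59 FPKM. In FC library 6 the summed markers of the pituitary were 17.8 FPKM. They were at most 0.630 FPKM in the other FC libraries, 0.744 FPKM in HC and 1.43 FPKM in Immo+FC.

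Levels of the 9 genes differed by more than 100-fold. Sst (chr16:23889573-23890958, minus strand), the peptide of a large class of dendrite-targeting interneurons, was the most abundant, with a mean of 507.6 FPKM over 16 libraries, rank 35 among the genes tested. Cck (chr9:121489824-121495694, minus strand) followed at 355.7 FPKM and Npy (chr6:49822710-49829507, plus strand) at 129.7 FPKM. The remaining genes were far lower. Vip (chr10:5639218-5647617, plus strand), the peptide of interneurons that inhibit other interneurons, had a mean of 16.6 FPKM, and Cort (chr4:149125034-149126763, minus strand), whose peptide resembles somatostatin and binds its receptors, had 12.2 FPKM. Nts (chr10:102481756-102490486, minus strand) had 8.97 FPKM and Cartpt (chr13:99898489-99901091, minus strand), the precursor of the CART peptides, 5.10 FPKM. Trh (chr6:92242061-92244650, minus strand) had a mean of 4.56 FPKM and Trhr (chr15:44196135-44235912, plus strand) 3.15 FPKM.

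The first 4 places of this order held in every library: Sst was above Cck, Cck above Npy, Npy above Vip and Vip above Cort in 16 of 16 libraries. The lower places were less fixed. Cort exceeded Nts in 12 of 16 libraries, Nts exceeded Cartpt in 15 and Cartpt exceeded Trh in 14. Trh exceeded Trhr in only 6 of 16 libraries, so the order of these neighbours by the mean rests on a few libraries with high Trh.

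The genes also differed in how much they varied. Sst varied least, with a ratio of 1.33 between the highest and the lowest library, and its spread within groups (SD 0.115 on the log2 scale) was at the 43.2 percentile of all genes tested, whose median SD was 0.126. Npy, Cck, Vip and Cort spanned 1.53 to 1.79-fold. Cartpt spanned 2.1-fold, Nts 2.39-fold and Trhr 3.18-fold, with spreads within groups at the 92.8, 94.3 and 96.9 percentiles. Trh spanned 12.6-fold, and its spread within groups (SD 1.04) was at the 99.3 percentile.

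**Figure D1:**
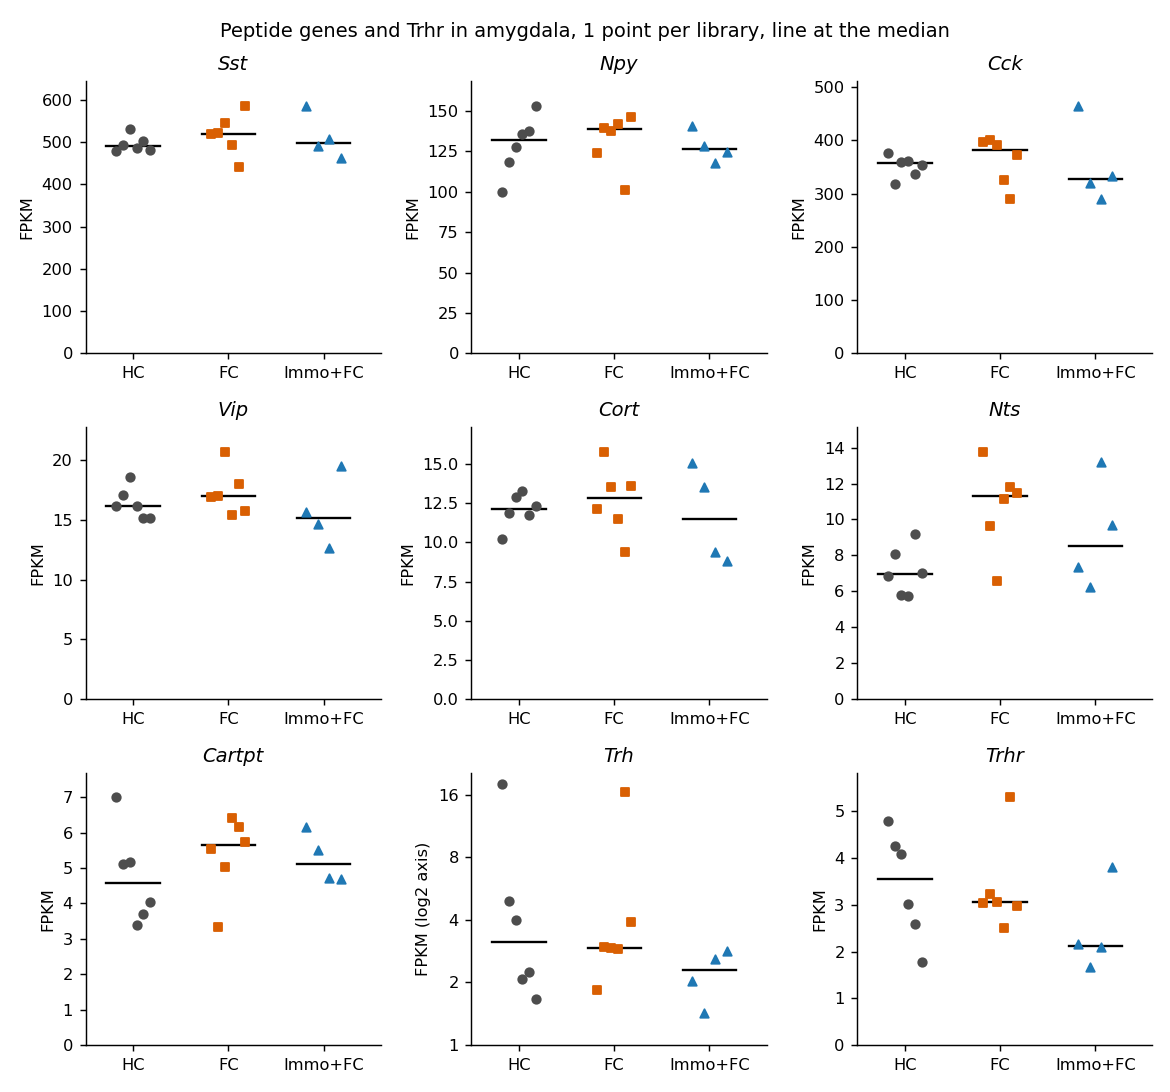
FPKM of each gene in every amygdala library (points, 1 per pool of 2 mice) for HC (6), FC (6) and Immo+FC (4), with a line at the group median; axes start at 0 except for Trh, which has a log2 axis. The groups overlap for all 9 genes, Nts is higher in 5 of 6 FC libraries than in any HC library, and 1 HC and 1 FC library stand far above the others for Trh.

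The first comparison set fear conditioning without immobilization against basal conditions (FC against HC). None of the 9 genes passed an adjusted p of 0.05 in limma, where 2 of all genes tested did (0.0148%), and 1 of 9, Nts, had an unadjusted p under 0.05, as did 13.1% of all genes tested. The groups overlapped for each of the 9 genes, whereas 1.39% of all genes tested had groups without overlap. All 9 log2 fold changes were positive, as were those of 7636 of the 13508 genes tested. The median log2 fold change of the 9 genes was 0.06, beside 0.01 over all genes tested. In bulk tissue a larger number of cells of a type and more RNA per cell cannot be told apart.

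Nts was the gene with the largest difference between FC and HC. Its values were 6.86, 8.08, 5.77, 5.76, 9.22 and 7.01 FPKM in HC and 13.8, 9.63, 6.57, 11.1, 11.8 and 11.5 FPKM in FC. All FC libraries except the third lay above the highest HC library. The mean was 7.12 ± 1.35 FPKM (SD, n = 6) in HC and 10.7 ± 2.43 FPKM (SD, n = 6) in FC, a log2 fold change of 0.57 with an SE of 0.18 (95% interval 0.18 to 0.96). The unadjusted p was 0.00651 and the limma adjusted p 0.171, so the difference did not pass over all genes. Across 30 alternative settings the log2 fold change of Nts stayed between 0.30 and 0.70, with unadjusted p-values under 0.05 in all 30 and adjusted p-values of 0.0504 to 0.346.

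Nts moved with the markers of GABA neurons. A score of Gad1, Gad2 and Slc32a1, which make and load GABA, was taken as the mean of their centred log2 values in each library, and it ranged from -0.32 to 0.39. Over 16 libraries Nts correlated with this score at Pearson r = 0.86 (p = 0.00041, adjusted p = 0.00369 over 18 relations of the 9 genes with 2 scores, 2-sided permutation test within groups) and Spearman rho = 0.81 (p = 0.00177, adjusted p = 0.0106). Without the 2 libraries farthest from the median score, r was 0.78. Within groups r was 0.75 in HC and 0.96 in FC. With the score as a covariate in limma the log2 fold change of Nts between FC and HC was 0.30 in place of 0.57 (unadjusted p = 0.0117, adjusted p = 0.204).

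The 5 central amygdala markers summed to more in 4 of 6 FC libraries than in any HC library, with a median sum of 97.7 FPKM in FC (70.2 to 119) and 79.0 FPKM in HC (76.2 to 93.6). All 5 had a positive log2 fold change in FC against HC, as did 7636 of the 13508 genes tested. Their median was 0.40, but 0 passed in limma. The 5 basolateral amygdala markers were also all positive, with a median of 0.14. Of these 1, Cyp26b1, had an unadjusted p under 0.05 in limma (0.43, adjusted p = 0.254), beside 13.1% of all genes tested. The highest of the central amygdala markers was Wfs1, with means of 57.8 FPKM in HC and 61.6 FPKM in FC, a log2 fold change of 0.08. Of the 5 central amygdala markers 2 had an unadjusted p under 0.05 in limma, beside 13.1% of all genes tested. These were Crh, the corticotropin-releasing hormone gene (0.48, adjusted p = 0.225), and Tac2, the neurokinin B precursor (0.61, adjusted p = 0.317). The third FC library, the lowest of its group in Nts, was also the lowest in the central amygdala, striatal and GABA neuron sums (70.2, 185.9 and 140.4 FPKM). Immo+FC library 1 had the highest central amygdala sum of its group (100.5 FPKM), with Nts at 7.35 FPKM. In HC the highest sum was in library 2 (93.6 FPKM), where Nts was 8.08 FPKM, below the 9.22 FPKM of library 5. The part of central amygdala tissue in the difference of Nts was not tested.

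The interneuron peptides showed little difference between FC and HC. Sst was 478 to 531 FPKM in HC and 441 to 585 FPKM in FC, a log2 fold change of 0.06 with a 95% interval of -0.08 to 0.19. Intervals for Npy (-0.17 to 0.24), Cck (-0.17 to 0.25) and Vip (-0.12 to 0.27) were also narrow, and that for Cort was -0.22 to 0.33. Cartpt was 3.37 to 6.99 FPKM in HC and 3.34 to 6.40 FPKM in FC, with a log2 fold change of 0.19 (-0.16 to 0.55). For Trh and Trhr the estimates were near 0 (0.013 and 0.0046). Their 95% intervals were wide, at -1.10 to 1.12 for Trh and -0.49 to 0.50 for Trhr, so changes within them remain possible.

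**Figure D2:**
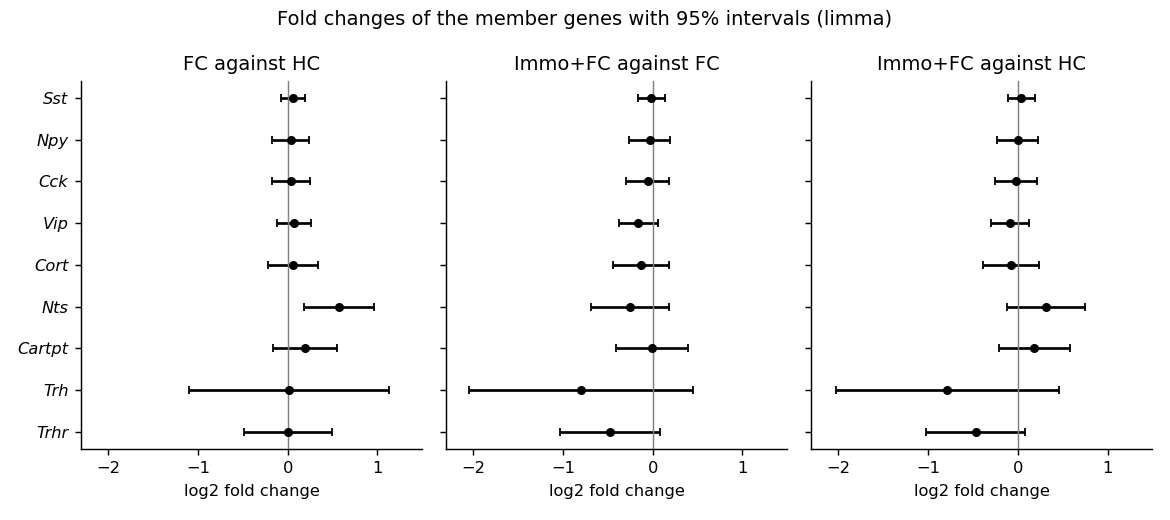
Log2 fold changes on the log2(FPKM + 0.1) scale (points) with 95% intervals (bars) of the 9 genes in the 3 comparisons, from the limma fit over 16 libraries. The interval excludes 0 only for Nts in FC against HC (0.18 to 0.96), and that of Trh is the widest in each panel.

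Immo+FC was compared with FC to ask whether earlier immobilization altered the response to conditioning. None of the 9 genes passed in limma, where 3 of all genes tested did (0.0222%), and 0 of 9 had an unadjusted p under 0.05, against 10.4% of all genes tested. Groups without overlap were found for 0 of 9 genes and for 2.28% of all genes tested. All 9 fold changes were negative, as were those of 8111 of the 13508 genes tested. The median of the 9 was -0.13 beside -0.02 over all genes tested, but those of Sst and Cartpt turned positive (0.01 and 0.02) under median-ratio scaling. This comparison shares the FC libraries with the first one.

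The lowest estimates were those of the thyrotropin-releasing hormone pair. Trhr was 3.05, 3.23, 3.06, 2.51, 5.30 and 2.97 FPKM in FC and 2.15, 1.67, 2.1 and 3.80 FPKM in Immo+FC. The first 3 Immo+FC libraries were below every FC library and the fourth was above all but 1 of them. The log2 fold change was -0.47 with an SE of 0.26 (95% interval -1.03 to 0.08), an unadjusted p of 0.0881 and a limma adjusted p of 0.548. Without the fourth Immo+FC library it was -0.71 (unadjusted p = 0.0156, adjusted p = 0.281), within a range of adjusted p-values of 0.281 to 0.916 over 30 alternatives. Without Immo+FC libraries 1 and 2 it was -0.20, and 1 of the 30 alternatives had an unadjusted p under 0.05 in limma. The paper counted Trhr among the amygdala genes that differed between these groups, by a different test, Cuffdiff, which was not run here. For Trh the log2 fold change was -0.80 with a 95% interval of -2.04 to 0.44, and without FC library 5 it was -0.38.

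The other genes differed by less. Vip was 15.4 to 20.7 FPKM in FC and 12.7 to 19.5 FPKM in Immo+FC, a log2 fold change of -0.16 (-0.37 to 0.06). Over 30 alternatives the estimate of Vip went from -0.27 without Immo+FC library 4 to -0.0645 without Immo+FC library 3. In limma 2 of the 30 had an unadjusted p under 0.05, the lowest with the GABA score as a covariate (0.00476). Adjusted p-values were 0.229 to 0.858 over the 30. Nts in Immo+FC, at 7.35, 6.25, 13.2 and 9.68 FPKM, spanned both the HC and the FC ranges, and its log2 fold change was -0.25 (-0.69 to 0.18). Cort split the Immo+FC libraries, with 15.1 and 13.5 FPKM in libraries 1 and 2 and 9.41 and 8.82 FPKM in libraries 3 and 4. Its log2 fold change went from -0.13 to -0.45 without libraries 1 and 2 (unadjusted p = 0.00635, adjusted p = 0.219, within 0.219 to 0.987 over 30 alternatives). Without Immo+FC library 4 it was -0.0087, and 1 of the 30 alternatives had an unadjusted p under 0.05 in limma. Sst (-0.02, interval -0.17 to 0.13), Npy (-0.04, -0.27 to 0.20) and Cck (-0.06, -0.29 to 0.18) had narrow intervals around 0, and Cartpt was at -0.01 (-0.41 to 0.39).

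Immo+FC against HC set the combined treatment against basal conditions. None of the 9 genes passed in limma, where 27 of all genes tested did (0.2%), and 0 of 9 had an unadjusted p under 0.05, against 13.1% of all genes tested. No groups without overlap were seen among the 9 genes, against 2.57% of all genes tested. Fold changes were positive for 3 genes and negative for 6, beside 6129 and 7379 of all genes tested. The median of the 9 was -0.02 beside -0.01 over all genes tested, and Npy and Cck were so near 0 that their sign changed with scaling. Trhr was at -0.47 (-1.02 to 0.08, adjusted p = 0.471), Trh at -0.79 (-2.03 to 0.46, adjusted p = 0.616) and Nts at 0.32 (-0.12 to 0.75, adjusted p = 0.551).

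Trh was set apart by single libraries. Its values were 18.0, 4.94, 3.99, 2.08, 2.25 and 1.66 FPKM in HC, 1.84, 2.95, 2.91, 2.89, 16.6 and 3.91 FPKM in FC and 2.02, 1.43, 2.58 and 2.83 FPKM in Immo+FC. HC library 1 and FC library 5 were more than 3 times as high as any other library, and they belong to different groups. The same 2 libraries had the highest Trhr, at 4.80 and 5.30 FPKM, and the lowest Npy, at no more than 101.5 FPKM. Their summed choroid plexus markers were 586 and 921 FPKM and their summed striatal markers 180.5 FPKM, the lowest of 16 libraries, and 260.9 FPKM. Their summed markers of the leptomeninges, the thin membranes over the brain, were 31.3 and 24.6 FPKM, the highest of their groups, and their summed hypothalamic markers 3.11 and 5.09 FPKM. Choroid plexus markers were higher still in HC library 2 (1069 FPKM) and Immo+FC library 1 (973 FPKM), where Trh was 4.94 and 2.02 FPKM. Immo+FC library 3 had leptomeningeal markers at 26.4 FPKM and Trh at 2.58 FPKM. The part of these tissues in the level of Trh was not tested. Without HC library 1 and FC library 5 the log2 fold change of Trh was 0.04 in FC against HC, -0.38 in Immo+FC against FC and -0.34 in Immo+FC against HC.

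Trh and its receptor varied together. Among 36 pairs of the 9 genes, Trh and Trhr had the highest Pearson correlation over 16 libraries, r = 0.82 (p = 6e-05, adjusted p = 0.00216 over 36 pairs, 2-sided permutation test with 100000 permutations within groups), with Spearman rho = 0.82 (p = 0.00086, adjusted p = 0.0155). Without HC library 1 and FC library 5, the farthest from the median of Trh, r was 0.78, and within groups it was 0.83 in HC and 0.88 in FC. Npy ran against Trh at r = -0.77 (p = 0.00273, adjusted p = 0.0246; rho = -0.39, p = 0.128, adjusted p = 0.430), but r was -0.23 without the same 2 libraries, so the relation rests on them. The relation of Npy with Trhr (r = -0.65, p = 0.00198, adjusted p = 0.0238; rho = -0.57, p = 0.0142, adjusted p = 0.0918) also weakened without them, to -0.36. Npy and Cort varied in the same direction (r = 0.65, p = 0.00169, adjusted p = 0.0238; rho = 0.63, p = 0.0095, adjusted p = 0.0855), with r = 0.52 without the 2 libraries. Vip and Trhr passed by rank only (rho = 0.83, p = 0.00073, adjusted p = 0.0155; r = 0.64, p = 0.0154, adjusted p = 0.0795), with r = 0.75 without the 2 libraries farthest from the median of Vip.

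Vip and Trhr were also lower where striatal markers were higher. A score of 9 striatal genes, built like the GABA score, ranged from -1.05 to 0.80 across libraries. Vip correlated with it at r = -0.81 (p = 8e-05, adjusted p = 0.00144; rho = -0.84, p = 0.00013, adjusted p = 0.00117), and r was -0.84 without the 2 libraries farthest from the median score. Trhr correlated with it at r = -0.82 (p = 0.00064, adjusted p = 0.00384; rho = -0.85, p = 0.00012, adjusted p = 0.00117), and r was -0.88 without those 2 libraries. Within groups the r of Trhr was -0.96 in HC and -0.59 in FC, and that of Vip was -0.77 and -0.95. These and the relation of Nts with the GABA score were the 3 of 18 that passed. Trh did not pass (r = -0.62, p = 0.0151, adjusted p = 0.0679; rho = -0.65, p = 0.0142, adjusted p = 0.0641), with r = -0.62 without those 2 libraries.

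The striatal markers were higher in 3 of 4 Immo+FC libraries than in most FC libraries: their summed level had a median of 479.5 FPKM in Immo+FC (257.3 to 581), 322.2 FPKM in FC (185.9 to 568) and 289.4 FPKM in HC (180.5 to 536), and 0 of 9 passed in limma in Immo+FC against FC. With the striatal score as a covariate, a setting chosen after seeing the data, the log2 fold change in Immo+FC against FC was -0.23 for Trhr, -0.41 for Trh and -0.07 for Vip. Trhr and Vip ran against this score in the same libraries, so this fit cannot decide the part of striatal tissue in these differences. That part was not tested.

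**Figure D3:**
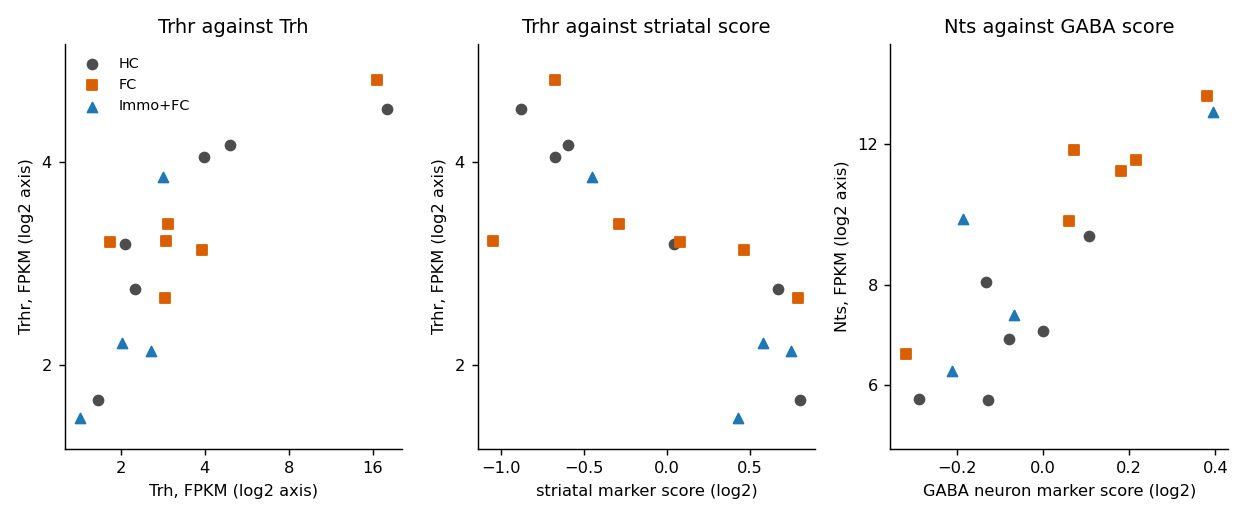
Trhr against Trh, Trhr against the striatal marker score and Nts against the GABA neuron marker score in 16 amygdala libraries (1 point each, FPKM on log2 axes, scores as mean centred log2 values). Trhr rises with Trh (r = 0.82) and is lower where striatal markers are higher (r = -0.82), and Nts rises with the GABA score (r = 0.86), with points of all 3 groups along each trend.

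The genes most like each of the 9 over the 16 libraries, among 12354 that averaged 1 FPKM or more, are given as a description, since they were picked for their r. For Nts the nearest were Gad1 (r = 0.91), which makes GABA, Rerg (0.89) and Peg10 (0.87). For Trh they were Smoc1 (0.94), Foxo1 (0.89) and the neuropeptide Y receptor gene Npy1r (0.85). For Trhr they were Gpr22 (0.94), Gm16702 (0.93) and the somatostatin receptor gene Sstr1 (0.92). Vip was nearest to Napepld (0.89), Mas1 (0.89) and Kitl (0.86). Npy was nearest to Chga (0.90), a core protein of dense core vesicles, Apbb1 (0.89) and Mrm1 (0.89), Cck to Eif5a (0.91), Basp1 (0.90) and Pithd1 (0.89), and Cort to Prrt3 (0.85), Tagln3 (0.84) and Sh3bgrl3 (0.83). Sst was nearest to Cecr5 (0.90), Cst3 (0.87) and Smdt1 (0.83), and Cartpt to Med25 (0.86), Pofut2 (0.85) and Rgl2 (0.82).

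The receptors of these peptides were measured beside them. Of 16 receptor genes 13 were tested, and 0 passed in any of the 3 comparisons. Their median log2 fold change was 0.01 in FC against HC, -0.00063 in Immo+FC against FC and 0.03 in Immo+FC against HC. In FC against HC 2 of 13 had an unadjusted p under 0.05, both higher, beside 13.1% of all genes tested. Sstr2, a somatostatin receptor that inhibits the cells carrying it, was 11.01 to 18.1 FPKM in HC, 13.9 to 24.2 FPKM in FC and 16.6 to 21.9 FPKM in Immo+FC, with a log2 fold change of 0.46 ± 0.14 (SE) in FC against HC (unadjusted p = 0.00485, adjusted p = 0.155) and 0.38 ± 0.16 in Immo+FC against HC (unadjusted p = 0.0288, adjusted p = 0.314). Vipr1, a receptor for vasoactive intestinal peptide, had a log2 fold change of 0.13 in FC against HC and -0.15 in Immo+FC against FC (adjusted p = 0.352 and 0.426). Sstr1 was 8.53 to 13.7 FPKM in HC, 8.69 to 12.1 FPKM in FC and 6.97 to 9.37 FPKM in Immo+FC, at -0.31 in Immo+FC against FC and -0.39 in Immo+FC against HC (adjusted p = 0.400 and 0.210).

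The other receptors had an unadjusted p above 0.05 in each comparison. Sort1, the sorting receptor that also binds neurotensin, was the most abundant at 56.4 to 71.3 FPKM, followed by Ntsr2 at 27.5 to 40.6 FPKM and the main brain cholecystokinin receptor gene Cckbr at 15.5 to 28.1 FPKM. Ntsr1 was 2.11 to 3.26 FPKM. The neuropeptide Y receptors Npy1r (5.57 to 9.35 FPKM), Npy2r (3.89 to 8.32 FPKM) and Npy5r (1.15 to 2.11 FPKM) were all tested. Sstr3 (5.04 to 6.51 FPKM) and Sstr4 (4.32 to 10.2 FPKM) were below Sstr2 and Sstr1 by their medians. Trhr2, the second receptor for thyrotropin-releasing hormone, was 0.554 to 1.59 FPKM, below the 1.67 FPKM that was the lowest value of Trhr. Sstr5 and Vipr2 were under the minimum for testing, with means of 0.357 and 0.380 FPKM, and Cckar had no entry under that name among the gene entries.

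The enzymes and vesicle proteins of the peptide pathway gave 0 of 17 genes past the threshold in each comparison. Their median log2 fold change was 0.06 in FC against HC, -0.07 in Immo+FC against FC and -0.04 in Immo+FC against HC. In FC against HC 3 of 17 had an unadjusted p under 0.05, beside 13.1% of all genes tested, and all 3 were higher: Ptprn, a dense core vesicle membrane protein (0.12, adjusted p = 0.115), Vgf, a granin-like precursor (0.26, adjusted p = 0.208) and Scg2, secretogranin II (0.35, adjusted p = 0.226). In Immo+FC against FC 4 of 17 did, beside 10.4% of all genes tested, and all 4 were lower: Ptprn (-0.18, adjusted p = 0.159), its paralog Ptprn2 (-0.21, adjusted p = 0.263), the carboxypeptidase Cpe (-0.12, adjusted p = 0.373) and the convertase Pcsk2 (-0.15, adjusted p = 0.374). Ptprn did not overlap between these groups, at 156.6 to 174.4 FPKM in FC and 143.2 to 151.4 FPKM in Immo+FC, but 2.28% of all genes tested had no overlap. In Immo+FC against HC only Pcsk2 had an unadjusted p under 0.05 (-0.19, adjusted p = 0.173). Trhde, which degrades thyrotropin-releasing hormone, was 1.56 to 3.12 FPKM with a log2 fold change of -0.19 in FC against HC and 0.19 in Immo+FC against FC. Qpct, which forms the cyclised N-terminus of that peptide and of neurotensin, was 4.54 to 6.51 FPKM with -0.05 and -0.06.

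Markers of interneurons and GABA neurons also gave 0 of 17 genes past the threshold in each comparison, with a median log2 fold change of 0.05, -0.08 and 0.02 in the same order. In FC against HC 5 of 17 had an unadjusted p under 0.05, beside 13.1% of all genes tested, of which 3 were in the direction of a higher level in FC and 2 of a lower one. Lhx6, a transcription factor of somatostatin and parvalbumin interneurons, was at 0.23 (adjusted p = 0.124), Gad1 at 0.21 (adjusted p = 0.211), Chodl, which marks somatostatin cells with long axons, at 0.52 (adjusted p = 0.255), Reln, an extracellular protein of other interneurons, at -0.47 (adjusted p = 0.208) and Ndnf, a marker of neurogliaform cells, at -0.37 (adjusted p = 0.336). Gad2 and Slc32a1 were at 0.16 and 0.18, with unadjusted p-values of 0.214 and 0.293. In Immo+FC against FC an unadjusted p under 0.05 was found for 5 lower genes and 1 higher gene of 17, beside 10.4% of all genes tested. The estimate farthest from 0 was that of Calb2, a calcium-binding protein of many Vip cells, at a mean of 22.7 FPKM in FC and 11.1 FPKM in Immo+FC (-1.02, adjusted p = 0.352). The others were Htr3a, the serotonin receptor subunit that marks the class with Vip cells (-0.36, adjusted p = 0.183), the calcium-binding protein Calb1 (-0.33, adjusted p = 0.237), Lhx6 (-0.21, adjusted p = 0.308), Gad1 (-0.19, adjusted p = 0.427) and Reln (0.58, adjusted p = 0.259). Htr3a and Calb1 were also the 2 with an unadjusted p under 0.05 in Immo+FC against HC (-0.31 and -0.34, adjusted p = 0.170 and 0.172).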

How the data were processed

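Libraries were made by the authors from poly-A selected RNA and sequenced in paired reads. Per the labels and the methods, reads were aligned to mm10 with STAR 2.3, and the authors computed FPKM with Cufflinks 2.1.1 and Cuffdiff 2.1.1, separately for amygdala and blood. The authors also tested differences between groups with Cuffdiff. The deposited mapping table gives the authors' counts of sequences and percent values of mapped reads. FPKM were taken as log2(FPKM + 0.1), which understates changes of low genes, and genes averaging 0.5 FPKM or more in 16 amygdala libraries entered a limma fit (version 3.58.1, R 4.3.3) of 3 groups, with no covariate, a variance trend and Benjamini-Hochberg adjustment over all genes tested. No libraries were identical. The fit was tested on simulated data.

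The members, lists and tests were chosen with earlier results of these data known. Named genes are all 9 members, all receptors, up to 6 genes of each other list in each comparison (Trhde and Qpct, or Gad1, Gad2 and Slc32a1, then those of smallest unadjusted p under 0.05) and the 3 nearest genes per member. Ndnf, Calb2, Cyp26b1, Lhx6 in Immo+FC against FC, Snap25 and the markers of central amygdala and hypothalamus were named after their values were seen. GENCODE vM21 (GRCm38, the same build as mm10) gave the positions, where no other gene overlapped a member. Alternatives were other pseudocounts, minimum values, scalings and fits, each library left out, and marker scores as covariates. The study describes 6 pools per group, and further Immo+FC pools were not analysed here. Lanes are not given in the sources used here.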

Additional observations from a re-analysis of the deposited data

Results flagged for a closer look

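Of 27 sets of a gene in a group, 3 held a library far from the others by Dixon's gap test, which chance flags in about 1 of 20 sets. Trh in HC library 1 was 18.0 FPKM, with the nearest HC library at 4.94 FPKM, and its gap was 0.799 of the range. Trh in FC library 5 was 16.6 FPKM, with the nearest FC library at 3.91 FPKM and a gap of 0.859 of the range. Trhr in FC library 5 was 5.30 FPKM, with the nearest FC library at 3.23 FPKM and a gap of 0.740 of the range. A cause was not tested.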

How the results depend on the processing

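Under 30 alternatives, 28 planned and 2 chosen after seeing the data, 0 of 9 members passed in any comparison; 755 of 810 member values kept their direction and 55, of estimates near 0 or of wide spread, did not. The cause was not tested. Counts of all genes depended strongly on the setting, so the small counts that serve as background are not fixed. FC against HC gave 1 without a filter and with the GABA score, 500 with array weights, 355 without HC libraries 1 and 2, 136 without HC library 1 and FC library 5, and 1 to 143 with each library left out (HC libraries 1, 2 and 3 gave 143, 60 and 35, Immo+FC library 1 gave 89, FC library 6 gave 10, and HC libraries 4, 5 and 6, FC libraries 1, 2 and 3 and Immo+FC library 3 gave 1). Immo+FC against FC gave 1 with median-ratio scaling and without Immo+FC libraries 1 and 2, 66 with only the groups compared, 171 with array weights, 121 without HC libraries 1 and 2, 12 without HC library 1 and FC library 5, and 1 to 30 with each library left out (HC libraries 1 and 2 gave 30 and 10, and FC libraries 1, 3, 4 and 6 and Immo+FC libraries 1 and 3 gave 1). Immo+FC against HC gave 6 without a filter, 0 with only the groups compared and without Immo+FC libraries 1 and 2, 16 with array weights, 2 without HC libraries 1 and 2, 3 without HC library 1 and FC library 5, 13 with the striatal score, and 0 to 148 with each library left out (Immo+FC library 4 gave 148, HC library 3 gave 79, Immo+FC libraries 1, 2 and 3 and HC libraries 2 and 5 gave 0, HC libraries 1 and 6 gave 3 and 4, and FC libraries 2, 3 and 4 gave 15, 7 and 5). Lists past the threshold went from 0 to 1 gene for peptide processing and for interneuron markers in FC against HC with array weights, for interneuron markers there without HC libraries 1 and 2, and for peptide processing in Immo+FC against FC with array weights and without HC libraries 1 and 2. With each library left out these lists ranged from 0 to 1 for peptide processing in Immo+FC against FC (1 without HC library 1) and for both lists in Immo+FC against HC (1 without Immo+FC library 4).

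Directions that turned in FC against HC were Npy (-0.0805) and Cort (-0.0062) without HC libraries 1 and 2, Trh (-0.0048) and Trhr (-0.0042) with a pseudocount of 1, and Trhr with median-ratio scaling (-0.0051), without HC library 1 and FC library 5 (-0.0224) and with the striatal score (-0.0003). Leaving out each library gave -0.0351 to 0.11 for Npy, -0.0114 to 0.14 for Cort, -0.41 to 0.46 for Trh and -0.16 to 0.11 for Trhr. In Immo+FC against FC these were Sst (0.0074) and Cartpt (0.0155) with median-ratio scaling, Nts without Immo+FC libraries 1 and 2 (0.11) and Cartpt without HC library 1 and FC library 5 (0.0367) and with the striatal score (0.0368). Leaving out each library gave -0.0834 to 0.0304 for Sst, -0.11 to 0.0038 for Npy, -0.20 to 0.0298 for Cck and -0.14 to 0.0483 for Cartpt. In Immo+FC against HC they were Sst with array weights (-0.0027) and without Immo+FC libraries 1 and 2 (-0.0312), Npy with median-ratio scaling (0.0136) and the GABA score (0.0031), Cck with quantile normalization (0.0065) and without HC library 1 and FC library 5 (0.0021), and Vip with the striatal score (0.0052). Leaving out each library gave -0.0265 to 0.0873 for Sst, -0.0702 to 0.0527 for Npy, -0.16 to 0.0678 for Cck, -0.20 to 0.0103 for Vip and -0.21 to 0.0469 for Cort.

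With the replicate block, the title number as a block, 160, 62 and 0 of all genes passed in the 3 comparisons and 0 of 9 members did, Nts in FC against HC was 0.57 (adjusted p = 0.205), and Npy in Immo+FC against HC turned to 0.0203. Samples with the same number share only that number: over 14 pairs the correlation of their deviations was -0.257 to 0.310, over 0.1 in 3, and in 3 of 14 pairs the library correlated best with its own number.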

Other observations

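In blood, where FPKM were normalized apart from amygdala, the same genes were low. Trhr was listed at 0 in 14 of 14 libraries and Trh in 13. Sst was 1.29 to 10.8 FPKM in 4 HC libraries, at most 2.86 FPKM in 5 FC and at most 2.53 FPKM in 5 Immo+FC libraries. Cck was 2.91 to 7.24 FPKM in HC and at most 3.18 FPKM in FC and 2.46 FPKM in Immo+FC, and Npy was 0.597 to 4.56 FPKM in HC and at most 0.832 and 0.857 FPKM. Snap25, a synaptic protein of neurons, was 3.60 to 16.5 FPKM in HC blood, at most 4.21 FPKM in FC and at most 4.37 FPKM in Immo+FC. These blood values were not tested.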
